A study of Mus musculus with 2 samples.

Results

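Septin 9, PACSIN2 and RIN2 are not cartilage matrix proteins. Septin 9 (Sept9, listed as Septin9 in the current RefSeq gene table) is a GTP-binding protein that assembles into cytoskeletal filaments, PACSIN2 is an F-BAR protein that bends membranes in endocytosis and at caveolae, and RIN2 is an exchange factor for RAB-family GTPases of early endosomes. The data gave the positions called as bound by Sox6 and by Sox9 around these 3 genes in primary chondrocytes from mouse ribs. SOX9 is an HMG-box transcription factor that bends DNA in the minor groove and activates cartilage genes, and SOX6 is an HMG-box factor of another SOX group that has no activation domain of its own and works together with SOX9 at cartilage enhancers. In chondrocytes such enhancers often lie in groups around 1 gene, so several peaks of both factors along 1 locus are a familiar arrangement.

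The loci were chosen by the measured peaks themselves: they hold runs of Sox6 peaks of which many lie on Sox9 peaks, outside the known cartilage matrix genes. All peaks with their centre in 3 windows of the mouse build mm9 were taken, namely chr11:117045000-117230000 for Sept9, chr15:83195000-83325000 for Pacsin2 and chr2:145540000-145720000 for Rin2 with its upstream flank. These windows of 185, 130 and 180 kb held 96 Sox6 peaks, out of 79107 in that list, and 56 Sox9 peaks, out of 23865. Numbers of peaks and their overlap at these loci are therefore a description of what was chosen, and no test was made of them. Gene names were taken with the windows. No mm9 annotation was used, so exons, introns and promoters were not assigned to peaks. In the GRCm38 gene table the neighbouring protein-coding genes are Sec14l1 and Tnrc6c for Septin9, Arfgap3 and Ttll1 for Pacsin2, and Slc24a3 and Naa20 for Rin2.

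The Sox6 peaks came from 1 chromatin immunoprecipitation (ChIP-seq) of untreated wild-type ICR mice at postnatal day 1, whose rib cartilage was dissected to keep the proliferative and prehypertrophic zones. Input DNA of the same kind of cells was the other sample, and no file of it was used here. The Sox9 peaks were called again by the authors from earlier ChIP-seq of rib chondrocytes, and the sources used here do not give the strain, age or pooling of its samples. The factor, the animals and the library therefore cannot be told apart in any difference between the lists. There is 1 list per factor, with positions only, so no value has a replicate error, sequencing depth is unknown, and the labelled cell type could not be checked against markers. The 95% exact binomial intervals below (Clopper-Pearson) cover counting error only and treat peaks as independent, which neighbouring peaks are not.

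A shared peak is one with 1 bp or more in common with a peak called for the other factor. At the 3 loci 43 of 96 Sox6 peaks were shared, which is 44.8% (34.6 to 55.3), against 23.1% over the whole Sox6 list. Seen from Sox9 the loci did not stand out: 43 of 56 Sox9 peaks were shared, or 76.8% (63.6 to 87.0), against 76.7% over the whole Sox9 list. The name of high sharing thus holds for the Sox6 peaks alone. Every shared peak had exactly 1 partner, giving 43 pairs, and no peak of either list met 2 or more peaks of the other. With pairs of this kind the Sox6 share equals the Sox9 share multiplied by the number of Sox9 peaks per Sox6 peak. That ratio was 0.583 at the loci and 0.302 over the whole lists.

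Relative to the whole lists both factors were dense at all 3 loci, and Sox9 more so. The windows held 1.94 Sox6 peaks per 10 kb, against 0.309 per 10 kb of the range that the peaks cover on the chromosomes, which is 6.28 times as many. Sox9 peaks numbered 1.13 per 10 kb, against 0.0931, or 12.2 times as many. Sept9 had 40 Sox6 and 22 Sox9 peaks (0.550 Sox9 per Sox6 peak), Pacsin2 24 and 13 (0.542), and Rin2 32 and 21 (0.656). Per locus 15 of 40 Sox6 peaks were shared at Sept9 (37.5%, 22.7 to 54.2), 12 of 24 at Pacsin2 (50.0%, 29.1 to 70.9) and 16 of 32 at Rin2 (50.0%, 31.9 to 68.1). The Sox9 shares were 68.2% at Sept9 (15 of 22, 45.1 to 86.1), 92.3% at Pacsin2 (12 of 13, 64.0 to 99.8) and 76.2% at Rin2 (16 of 21, 52.8 to 91.8). The intervals of the 3 loci overlap one another in either list.

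**Figure D1:**
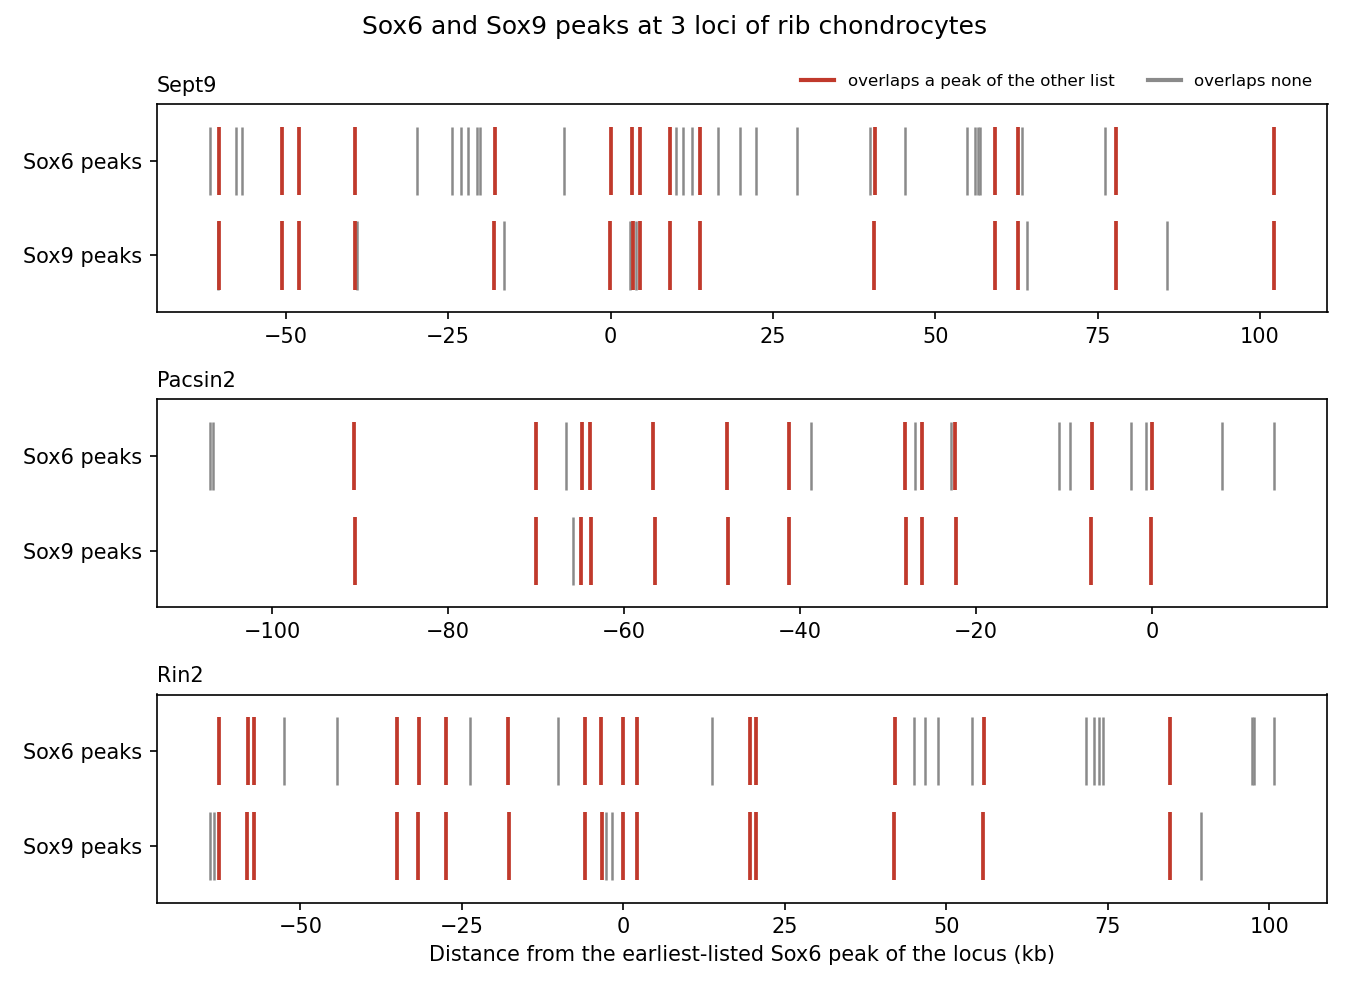
Each line is the centre of 1 called peak, placed by its distance in kb from the earliest-listed Sox6 peak of the locus, with Sox6 peaks above and Sox9 peaks below in each panel. Red lines are the 43 peaks of each list that overlap a peak of the other, and grey lines are the 53 Sox6 and 13 Sox9 peaks that do not. At Pacsin2 a single Sox9 line is grey, and at Sept9 groups of grey Sox6 lines stand between red ones.

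The share of shared peaks depended on the overlap required and on how much of the Sox6 list was used, and the whole lists moved as well. With at least 50% of both peaks overlapping, 22.9% of Sox6 peaks at the loci were shared, against 13.4% over the list, and 39.3% of Sox9 peaks against 44.6%. The order of the loci changed with that rule: Pacsin2 had the lowest shares, 16.7% of Sox6 peaks (4 of 24) and 30.8% of Sox9 peaks (4 of 13), against 22.5% and 40.9% at Sept9 and 28.1% and 42.9% at Rin2. With only the first 23865 Sox6 peaks, as many as the Sox9 list holds, 27 of the 35 Sox6 peaks left at the loci were shared, or 77.1%, against 49.9% over the list. In that setting, of the Sox9 peaks at the loci, 48.2% were shared, against 50.3% over the list. The 1 bp rule was decided by a few bases at 1 of the 43 pairs. That Sept9 pair at the low end of the window, the Sox6 peak chr11:117057298-117057379 and the Sox9 peak chr11:117057235-117057298, overlapped by 1 bp, and the next smallest overlap, at Rin2, was 36 bp. The nearest miss was the Sox9 peak chr11:117078446-117078536, whose edge lay 125 bp from a Sox6 peak.

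The Sept9 window had the most peaks and the lowest shared proportion of Sox6 peaks under the 1 bp rule, though not with 50% of both peaks overlapping, where Pacsin2 was lowest. One run, that is a series of peaks with neighbouring centres at most 12.5 kb apart, held 37 of the 40 Sox6 peaks over 125.1 kb (chr11:117055816-117180947), and 13 of these were shared. The place of a peak in its list is its row, counted from the first. The order is not documented, and it is read here as a ranking only because overlap falls along it. The earliest-listed Sox6 peak of the locus lay at chr11:117117479-117117643, at place 1025 of 79107. It overlapped the earliest-listed Sox9 peak, chr11:117117460-117117651 at place 477 of 23865, with centres 5.5 bp apart, the closest of the 15 Sept9 pairs. The next Sox9 peaks in list order were chr11:117078185-117078292 (place 1665) and chr11:117069526-117069697 (place 1902), both shared. The Sox6 partner of that last peak stood at place 68285, so a site early in one list was late in the other.

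The Sox6 peaks of Sept9 that came next in the list lay on no Sox9 peak. The second and the third in list order, chr11:117172445-117172570 at place 3238 and chr11:117137416-117137610 at place 3498, lay 4245 and 6143.5 bp from the nearest Sox9 centre. Each stood in a stretch of 5 neighbouring Sox6 peaks with no Sox9 peak among them, spanning 11.8 and 23.5 kb. A further stretch of 6 unshared Sox6 peaks covered 10.0 kb (chr11:117087641-117097645), again without a Sox9 peak, and held the widest Sox6 peak of the locus, 422 bp wide at place 77008. Shared peaks were also grouped: 4 neighbouring ones spanned 9.36 kb (chr11:117117479-117126835) around the earliest peak, and 6 Sox9 peaks lay in that span.

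Of the 7 Sept9 Sox9 peaks without overlap, 5 had a Sox6 centre within 1000 bp. These were chr11:117057077-117057139 (230.5 bp away), chr11:117078446-117078536 (234 bp), chr11:117120581-117120596 (345.5 bp), chr11:117121280-117121575 (493.5 bp) and chr11:117181505-117181755 (743 bp). The other 2, chr11:117101050-117101219 and chr11:117203067-117203341, were 1391 and 7863.5 bp from a Sox6 centre. The peak chr11:117120581-117120596 was only 16 bp wide, and chr11:117121280-117121575, at 296 bp, was the widest Sox9 peak of the locus. Over the whole list 58.8% of unshared Sox9 peaks had a Sox6 centre within 1000 bp.

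Pacsin2 was the locus where Sox9 peaks most often met a Sox6 peak under the 1 bp rule, and least often with 50% of both peaks overlapping. Its leading run of 21 Sox6 peaks spanned 84.0 kb (chr15:83234582-83318549), with 12 Sox9 peaks in the span and 11 of the Sox6 peaks shared. The 3 earliest-listed Sox6 peaks were all shared: chr15:83304523-83304737 at place 1892, chr15:83239699-83239859 at place 6665 and chr15:83282214-83282359 at place 8629. The earliest Sox9 peaks were chr15:83248048-83248136 (place 1075), chr15:83304436-83304608 (place 1290) and chr15:83282236-83282376 (place 1750). The second and the third of these are partners of early Sox6 peaks, whereas the partner of the first was a Sox6 peak of 393 bp at place 26269, whose centre was 167 bp away. That was the most distant pair of the 3 loci.

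In a row, 5 neighbouring Sox6 peaks of Pacsin2 were shared, over 23.7 kb (chr15:83239699-83263420), with 5 Sox9 peaks in that span. They include the widest Sox6 peak of the 3 loci, chr15:83256089-83256539 at 451 bp. The widest Sox9 peak of the locus, chr15:83297538-83297903 at 366 bp, was shared too, and the closest pair, the Sox6 peak chr15:83234582-83234663 with the Sox9 peak chr15:83234503-83234767, had centres 12.5 bp apart. The 1 unshared Sox9 peak, chr15:83238791-83238942, stood late in its list at place 22333 and 891 bp from a Sox6 centre. The earliest-listed unshared Sox6 peak was chr15:83295231-83295362 at place 20705 (26.2% of the list), 2424 bp from a Sox9 centre.

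All 32 Sox6 peaks of the Rin2 window fell into 4 runs. The Sept9 and Pacsin2 windows held 1 run each, with 37 of 40 and 21 of 24 Sox6 peaks, and their other Sox6 peaks were in groups too small to count as runs. The leading run of Rin2 held 18 Sox6 peaks over 83.4 kb (chr2:145550847-145634256), of which 13 were shared (72.2%, 46.5 to 90.3), and 15 Sox9 peaks. In the rest of the window 3 of 14 Sox6 peaks were shared (21.4%, 4.66 to 50.8). The leading run was picked for having the most shared Sox6 peaks. That choice tilts the contrast with the rest of the window, which was not tested. The window edge at the high end cut a run of 7 Sox6 peaks (chr2:145710729-145731812), of which 3 were inside and none was shared. The earliest-listed Sox6 peak of the locus, chr2:145613454-145613590 at place 1073, overlapped the earliest Sox9 peak of all 3 loci, chr2:145613413-145613609 at place 81, with centres 11 bp apart. The second Sox6 peak, chr2:145550847-145551027 at place 2114, lay on the third Sox9 peak, chr2:145550802-145550946 at place 1082. The second Sox9 peak, chr2:145581754-145581832 at place 552, met a Sox6 peak at place 4157. The 3 earliest Sox9 peaks of Rin2 were thus all shared and all in the leading run.

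The third Sox6 peak of Rin2 in list order was unshared. It lay at chr2:145686296-145686413, at place 3515, in a group of 4 Sox6 peaks over 2.72 kb without Sox9, and its nearest Sox9 centre was 11765 bp away. The closest centres of the 3 loci were found in the leading run, where the Sox6 peak chr2:145585939-145586093 and the Sox9 peak chr2:145585928-145586102 had centres 1.0 bp apart. The widest Sox6 peak, chr2:145658380-145658811 at 432 bp, was unshared. The widest Sox9 peak, chr2:145655258-145655717 at 460 bp, was shared.

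At Rin2 5 Sox9 peaks had no Sox6 overlap, and 4 of them flanked shared sites. A pair lay just below the first Sox6 peak of the window, chr2:145549301-145549683 (1445 bp from a Sox6 centre) and chr2:145550070-145550289 (757.5 bp). Another pair lay between shared sites, chr2:145610844-145610940 (758 bp) at place 6067 and chr2:145611681-145611854 (1633.5 bp) at place 4544. These places, 25.4% and 19.0% of the list, are earlier than the median of the shared Sox9 peaks of the locus, 37.6%. The fifth, chr2:145702971-145703036, was 4892.5 bp from a Sox6 centre.

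Overlapping peaks this narrow must have nearby centres, so closeness as such follows from the overlap rule. The median centre distances were smaller at Sept9 and Rin2 than at Pacsin2. The 43 pairs had a median centre distance of 27.0 bp (range 1.0 to 167), against 40.5 bp over the 18297 pairs of the whole lists, and 58.1% and 58.5% of the pairs were within 50 bp. The medians were 21.5 bp at Sept9 (quartiles 12.5 and 49.2), 58.2 bp at Pacsin2 (25.1 and 113.5) and 34.0 bp at Rin2 (8.12 and 74.5), so the quartile ranges overlap. Peak widths were a little below those of the whole lists, with a median of 140.5 bp against 151 bp for Sox6 and 174.5 bp against 183 bp for Sox9. The differences in centre distance and width were not tested.

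Unshared Sox6 peaks of the loci were nearer to Sox9 peaks than those of the whole list were, whereas unshared Sox9 peaks lay at distances from Sox6 much like those of their list. The 53 unshared Sox6 peaks had their nearest Sox9 centre at a median of 4113.5 bp (518 to 16466), against 15935 bp for all unshared Sox6 peaks. The windows are also dense in Sox9 peaks, and the part of that density in the shorter distance was not tested. Few were close by: 7 of 53 (13.2%) had a Sox9 centre within 1000 bp, against 10.3% over the list, and at Rin2 it was 0 of 16, which allows up to 18.8% by a limit of 3 counts, with a median distance of 7295.8 bp. The 13 unshared Sox9 peaks lay at a median of 758 bp from a Sox6 centre (230.5 to 7863.5), against 645 bp over the list, and 8 of 13 had one within 1000 bp (61.5%), against 58.8% over the list.

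The loci held early and late Sox6 peaks alike, with a median place at 51.2% of the list, and 13 of 96 were in the first 10%. Shared Sox6 peaks had a median place at 21.2% and unshared ones at 63.1%, against 19.4% and 58.6% over the whole list. The early place of shared Sox6 peaks was thus seen over the whole list as well. It is the same fall of overlap along the list for which the order is read as a ranking. The Sox9 peaks of the loci came earlier, with a median at 33.1% of the list, and 38 of 56 were in the first 50%. At Pacsin2 12 of 13 Sox9 peaks were in the first 50%, with a median at 17.9%, against 45.6% at Sept9 and 31.8% at Rin2.

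**Figure D2:**
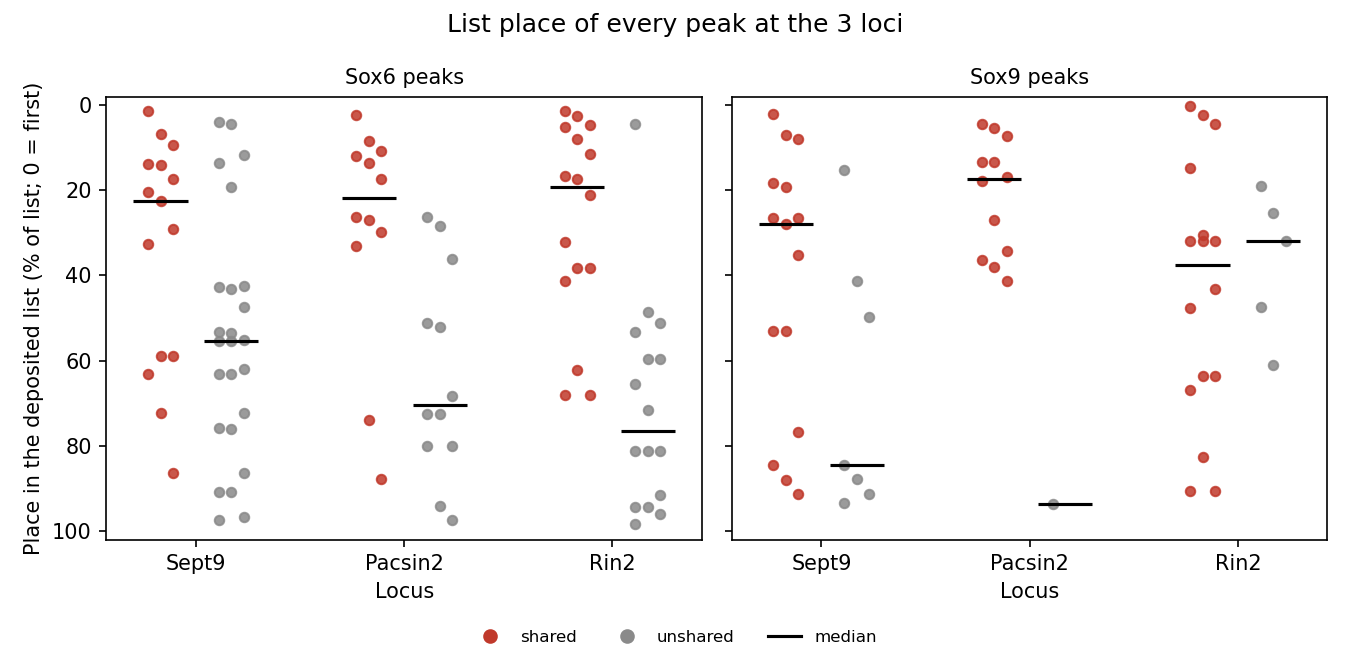
Each point is 1 peak at its place in the deposited list, as % of the list with the first row at the top, for Sox6 (left) and Sox9 (right), with shared peaks in red and unshared ones in grey. Bars are medians. In the Sox6 panel the shared medians lie at 22.6% (Sept9), 21.7% (Pacsin2) and 19.3% (Rin2), above the unshared medians of 55.3%, 70.4% and 76.4%. Over the whole Sox6 list these medians are 19.4% and 58.6%.

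The loci were chosen for Sox6 peaks that lie on Sox9 peaks, and a comparison by list place does not undo that choice. With that limit, the Sox6 share of the loci was above that of Sox6 peaks listed equally early. At the loci 44.8% were shared, against 25.8% of all Sox6 peaks when the list was divided into 10 equal parts and the parts weighted as at the loci. Per locus the observed and the weighted list values were 37.5% and 25.3% at Sept9, 50.0% and 26.0% at Pacsin2 and 50.0% and 26.3% at Rin2. In the first 50% of the list 33 of 47 Sox6 peaks of the loci were shared (70.2%, 55.1 to 82.7), against 38.1% of all, and in the last 50% 10 of 49 (20.4%, 10.2 to 34.3), against 8.02%. The gap was wide in parts 2 to 4, where the loci had 76.9%, 77.8% and 83.3% shared, against 46.8%, 32.2% and 23.3% of all. In part 7 the loci had 4 of 9 shared (44.4%), against 9.41%, and in part 9 they had 2 of 6 (33.3%), against 6.02%. Parts 1, 6 and 8 had 76.9%, 15.4% and 20.0% at the loci, against 70.8%, 12.5% and 7.13% of all. In part 5 the loci had 1 of 6 shared (16.7%), against 17.2% of all. In the last part 0 of 11 were shared, which by the limit of 3 counts, not an exact interval, allows a share of up to 27.3%, against 5.06% of all. For Sox9 the share at the loci was 76.8%, against 79.2% with the same weighting.

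**Figure D3:**
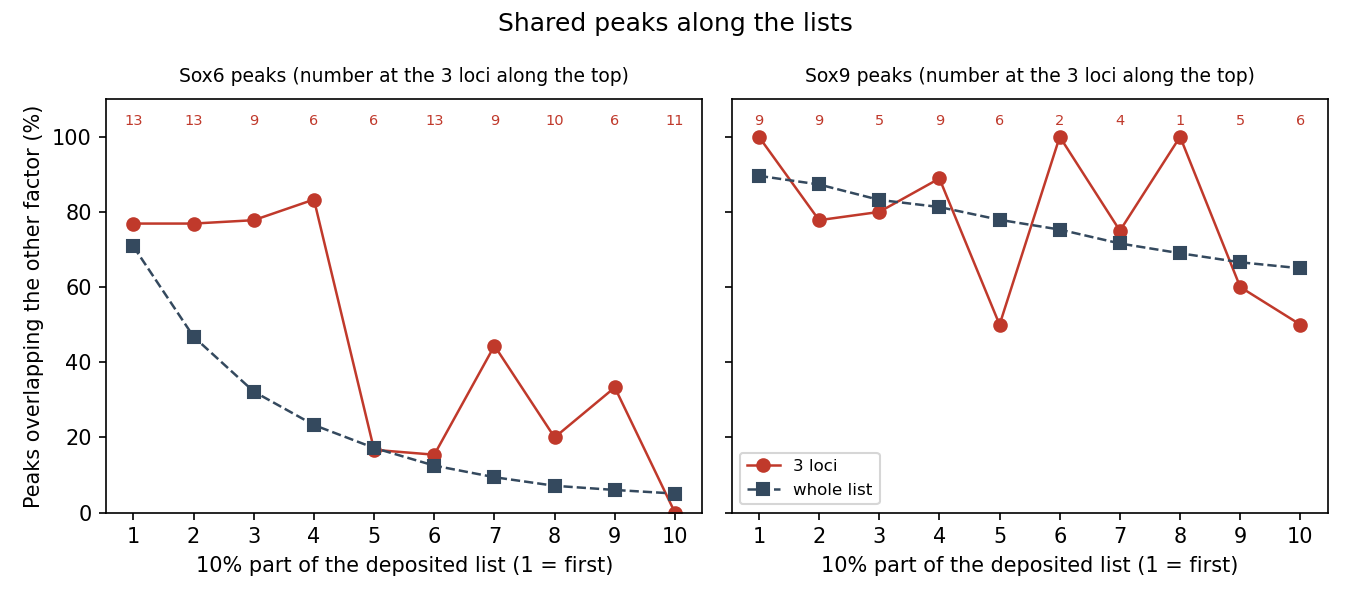
Percentage of peaks that overlap the other factor in each 10% part of the deposited list, for the 3 loci (red circles, with the number of peaks along the top) and the whole list (dark squares), Sox6 left and Sox9 right. In the first 4 parts the Sox6 peaks of the loci lie at 76.9% to 83.3%, above the whole list, which is at 70.8% in the first and 23.3% in the fourth. Points from the loci rest on 1 to 13 peaks each.

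Set beside the other runs of at least 15 Sox6 peaks, the 3 leading runs were in the upper range of shared proportion, but not of Sox6 density. The loci were chosen for runs with many Sox6 peaks on Sox9 peaks, so a high rank in this measure follows from that choice. The list formed 313 runs of at least 15 Sox6 peaks, with a median of 19 Sox6 peaks and a median shared proportion of 21.1% (quartiles 13.6 and 31.6). Their median density was 3.47 Sox6 peaks per 10 kb. All 3 leading runs were below it, with 2.96 at Sept9, 2.5 at Pacsin2 and 2.16 at Rin2. The Rin2 run, with 72.2%, had the highest proportion of the 313. Its nearest followers were the runs chr13:56657998-56717570 and chr3:90378512-90434904, each with 12 of 18 Sox6 peaks shared (66.7%). For the Pacsin2 run, with 52.4%, 13 runs had a higher proportion, and the nearest in proportion were chr19:53602686-53632003 and chr9:78435911-78494105, with 10 of 19 shared (52.6%). For the Sept9 run, with 35.1%, 55 runs had a higher proportion but 5 had more shared peaks than its 13. Among the 26 other runs with at least as many Sox6 peaks, a comparison added after the values were seen, the highest proportion was 27.8%. In the same comparison the highest proportion for Pacsin2 was 63.6% among 122 runs, above its own 52.4%. For Rin2 it was 66.7% among 192 runs, below its own 72.2%. The runs picked as nearest to Sept9 in proportion, chr10:96140111-96230321 and chr10:110940312-110987676, had 7 of 20 shared (35.0%). They hold fewer Sox6 peaks than the 37 of the Sept9 run.

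**Figure D4:**
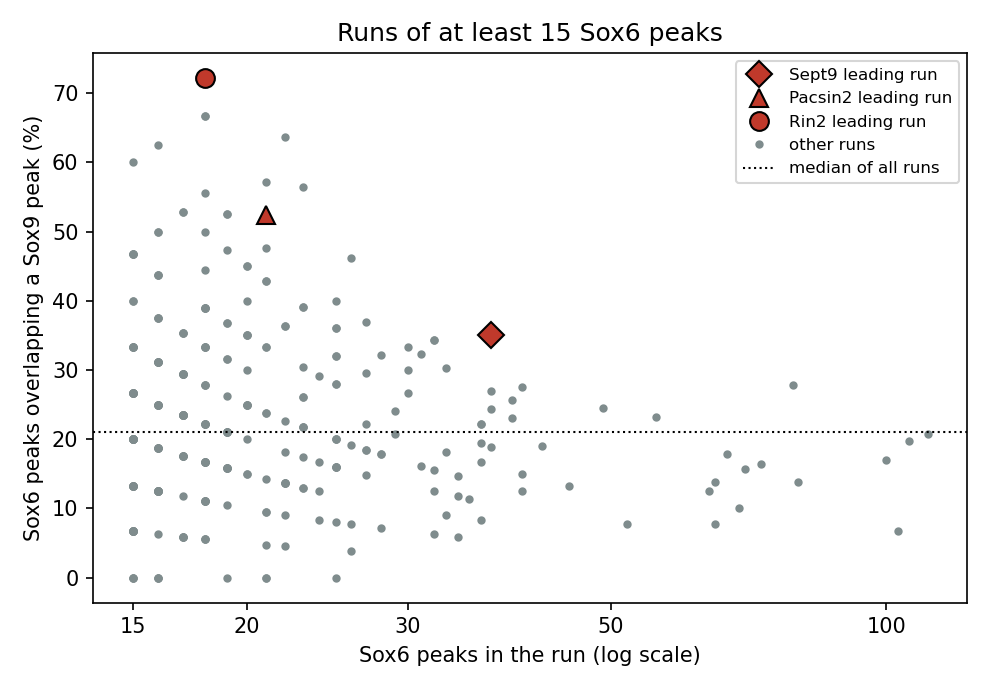
Each point is a run of at least 15 Sox6 peaks, by its number of Sox6 peaks (log scale) and the percentage of them that overlap a Sox9 peak. Red symbols are the leading runs of Sept9 (37 peaks, 35.1%), Pacsin2 (21 peaks, 52.4%) and Rin2 (18 peaks, 72.2%), grey points are the other 310 runs, and the dotted line is the median of 21.1%. High proportions occur among the shorter runs, and so do the 10 runs with no shared peak.

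Just beyond the window edges lay gaps without a Sox9 peak. Below Sept9 Sox9 peaks were dense again further out. There the Sox6 run chr11:116924124-117001295 held 10 Sox9 peaks over 77.2 kb. The whole Sox9 list has 0.0931 peaks per 10 kb, with a median of 26489 bp between neighbouring centres. The outermost Sox9 peaks inside lay 12.1 kb (low side) and 10.3 kb (high side) from the edges at Sept9, 19.0 and 20.5 kb at Pacsin2, and 9.49 and 17 kb at Rin2. The nearest Sox9 peaks outside were 69.4 and 147.2 kb beyond the same edges at Sept9, 68.4 and 71.1 kb at Pacsin2, and 490.4 and 734.8 kb at Rin2. The outermost Sox6 peaks inside lay 10.9 and 10.3 kb from the edges at Sept9, 2.52 and 6.48 kb at Pacsin2, and 10.9 and 5.70 kb at Rin2. Sox6 peaks continued closer by outside, at 6.17 and 21.8 kb for Sept9, 14.5 and 16.4 kb for Pacsin2, and 14.4 and 4.14 kb for Rin2. With no Sox9 peak that near, none of these 6 outer Sox6 peaks could be shared.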

How the data were processed

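Peak lists of Sox6 and Sox9 from mouse rib chondrocytes were used. The submitters' processing notes name Bowtie and the build mm9 and give no version. The sources used here name no peak caller, threshold or filter. The authors deposited chromosome, start and end of each peak, without score, count or p-value. The Sox9 list re-analyses earlier samples, per the series' design text, and was taken as mm9 too. Starts, counted from 0 in the files, are printed counted from 1. Peaks were assigned to windows by centre, and pairs were each Sox9 peak with its nearest Sox6 centre, where these overlapped. Runs had 3 or more peaks, and the leading run of a locus had the most shared Sox6 peaks. The functions were checked on simulated intervals. Python 3.11.15, pandas 2.3.3 and scipy 1.17.1 were used, and no test was run.

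The members, alternatives and rules were chosen with earlier results of these data known. The peaks named per locus were the 3 earliest of each list, the closest pair, the widest of each list, any with 2 or more partners, the unshared Sox9 peaks, the earliest unshared Sox6 peak and those at the window edges, and per leading run the 2 runs of nearest shared proportion. Stretches of neighbouring peaks, partners of named peaks, cut runs and peaks at the limit of the overlap rule were named after their values were seen. No mm9 genome was used, so no sequence is shown.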

Additional observations from a re-analysis of the deposited data

How the results depend on the processing

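The shared share of Sox6 peaks at the 3 loci, 44.8%, moved out of its interval in 3 of 7 alternatives. It was 22.9% with at least 50% of both peaks overlapping, against 13.4% over the whole list. With the first 50% of each list it was 55.3%, against 22.5%, and as printed this equals the upper limit of the interval. With as many first Sox6 peaks as Sox9 peaks it was 77.1%, against 49.9%. The share of Sox9 peaks, 76.8%, moved to 39.3% with 50% overlap, against 44.6% over the whole list. It moved to 91.1% with a gap of up to 1000 bp between edges, against 90.8%, and to 48.2% with the shortened Sox6 list, against 50.3%. The shorter list holds fewer Sox6 peaks to meet, and the gap counts more neighbours by construction. For the 3 loci together, centres within 250 bp, merged neighbours and the leading runs alone kept both shares within their intervals. So did leaving out each locus in turn, an alternative added after seeing the data (42.2% to 50.0% for Sox6 and 72.1% to 82.4% for Sox9). At Rin2 by itself the leading run alone moved the Sox6 share from 50.0% to 72.2%, above its interval of 31.9 to 68.1. Runs numbered 6, against 14 with neighbouring centres within 5000 bp and 3 within 25000 bp, where each locus becomes 1 run. Median centre distance and list places stayed within the quartiles of their main values. List places rest on an undocumented order, and without scores or replicates no peak could be weighed by its strength.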

Other observations

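Some peaks that are neighbours in the genome were also neighbours in the list. At the 3 loci 20 of 56 Sox9 peaks (35.7%) had another Sox9 peak within both 200 kb and 20 places of the list, against 11% over the whole list, with 10 of 22 at Sept9 (45.5%), 2 of 13 at Pacsin2 (15.4%) and 8 of 21 at Rin2 (38.1%). For Sox6 it was 25 of 96 (26.0%), against 18.7%. Dense windows hold more peaks that can meet this condition, and the difference was not tested. As examples picked after their values were seen, of the Rin2 Sox9 peaks, 4 stood at places 7584, 7590, 7593 and 7598. At Sept9 the Sox9 peaks at places 12680 and 12681 were both shared, as were those at places 3190 and 3191 at Pacsin2.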
